A study of Macaca mulatta with 2 samples.

Results

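The genes described here encode the enzymes and receptors that follow 5-lipoxygenase and the cyclooxygenases on the way to leukotrienes and thromboxane. They were chosen by gene symbol, and 9 of the 10 symbols sought were among the 16684 genes with a value. The tenth, *GGT5*, a gamma-glutamyltransferase that trims leukotriene C4, was not analysed here. RNA-seq of optic nerves from wild-type, untreated rhesus macaques (*Macaca mulatta*) gave 2 libraries of 1 condition, named Rep1 and Rep2. By the methods the nerves were donated after death from a 12-year-old male, whereas the deposited description speaks of 2 animals, so the libraries may share an animal. Levels were given as TPM, the share of length-corrected reads that a gene takes in its library, scaled to the same total in each. The series holds a single condition, so nothing was tested between groups, and the smallest p that 2 libraries allow in a two-sided exact sign test is 0.5. The spread between the libraries set what could be told apart.

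Leukotrienes are made from arachidonic acid. Cytosolic phospholipase A2 frees the fatty acid, and 5-lipoxygenase with its activating protein turns it into leukotriene A4, an unstable epoxide at which the pathway divides. LTA4H hydrolyses the epoxide to leukotriene B4, a chemoattractant of neutrophils. LTC4S joins it to glutathione instead, giving leukotriene C4, which gamma-glutamyltransferases and dipeptidases trim to leukotrienes D4 and E4. These cysteinyl leukotrienes constrict smooth muscle and make vessels leak, through CYSLTR1 and CYSLTR2. Thromboxane comes from the cyclooxygenase side: TBXAS1 turns prostaglandin H2 into thromboxane A2, a constrictor of vessels and activator of platelets that acts on TBXA2R. Lipoxins, the subject of the study, share 5-lipoxygenase with the leukotrienes.

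Several of the genes have close relatives, so the sequences that relatives share are shown first, because reads from such stretches could be assigned to either gene. LTC4S, MGST2 and MGST3 belong with the 5-lipoxygenase activating protein and MGST1 to 1 family of small membrane proteins. In the reading frames of the Mmul_10 transcripts LTC4S had 150 residues, MGST2 had 147 and MGST3 had 153. LTC4S matched MGST2 at 62 of 147 aligned residues (42.2%), MGST3 at 25.5% and the activating protein at 32.0%. At the level of bases, however, the longest run common to transcripts of *LTC4S* and *MGST2* had only 10 bases. *CYSLTR1* and *CYSLTR2*, at 38.3% identical residues, shared at most 12 bases. The dipeptidase genes *DPEP2* and *DPEP3* were far closer, with 70.7% identical residues and a run of 43 bases, of which the first 30 are printed. The lines give these runs from RefSeq transcripts, 5′ to 3′ along the transcript, in lower case throughout because each is shared whole.
LTC4S and MGST2: ctggctgctg
CYSLTR1 and CYSLTR2: gggctgaaatat
DPEP2 and DPEP3: ccctggagcagattgacctcattcgccgca
In Mmul_10 the *DPEP2* copy, with 1 to 30 coding bases depending on the transcript variant, lay at chr20:55205698-55205727 and the coding *DPEP3* copy at chr20:55193392-55193421, both on the minus strand. The *LTC4S* copy of the first run was coding sequence at chr6:177207048-177207057, and the *MGST2* copy, coding in some variants, lay at chr5:137561006-137561015, both on the plus strand. The *CYSLTR1* copy of the second run lay outside the coding part, at chrX:75005719-75005730 on the minus strand, as did the *CYSLTR2* copy at chr17:27131306-27131317 on the plus strand. No window of 50 bases in any transcript of the 9 genes occurred on the same strand in a transcript of another gene. On the opposite strand, 8.71% of the *LTC4S* windows lay in *MGAT4B* and 11.8% of the *MGST2* windows in *MAML3*. The use of strand in the counting is not given in the sources used here, so part of the reads of *LTC4S* and *MGST2* could belong to these neighbours. *MGAT4B* was at 71.7 TPM in Rep1 against 36.9 TPM in Rep2, and *MAML3* at 24.1 and 4.39 TPM.

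The libraries differed widely as a whole, which touches each value that follows. Rep1 listed 38.5% of genes at 0 and Rep2 listed 12.5%. Of all genes, 14693 were above 0 in Rep1, Rep2 or both, and their median difference on the log2(TPM + 1) scale was -1.07 (Rep1 minus Rep2). The depth in reads is not part of a TPM table, but ratios of values gave the relative worth of a read: in TPM, a single Rep1 read weighed as much as 17.2 Rep2 reads. The smallest whole read numbers that fit a gene's values are quoted as lower bounds, and amplified copies of a molecule are not independent. The counting error is therefore larger in Rep1.

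All 4 genes that act on leukotriene A4 or belong to that enzyme family were above 0 in both libraries. *MGST3* had the highest mean, with 21.6 TPM in Rep1 against 190 TPM in Rep2, or 106 ± 119 TPM (SD, n = 2). It encodes a microsomal glutathione transferase that can make leukotriene C4 in the test tube. The gene lies on the plus strand of chromosome 1 of Mmul_10 from 23113693 to 23139536. Its mean stood at percentile 89.6 of the 14693 detected genes. The Rep2 value exceeded the Rep1 value 8.79-fold, the widest gap among the 6 genes above 0 in both libraries. Those values fitted as few as 1 read in Rep1 and 151 in Rep2, so the depth behind them is poorly bounded.

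*MGST2* encodes the relative that makes leukotriene C4 outside blood-derived cells. It was at 13.5 TPM in Rep1 against 58.1 TPM in Rep2, with a mean of 35.8 ± 31.5 TPM (SD, n = 2) at percentile 74.6. The gene lies on the plus strand of chromosome 5 from 137560723 to 137619314. *LTC4S*, the dedicated leukotriene C4 synthase, was at 12.9 TPM in Rep1 against 45.6 TPM in Rep2. Its mean of 29.3 ± 23.1 TPM (SD, n = 2) stood at percentile 71.0 and rested on at least 7 and 425 reads. It lies on the plus strand of chromosome 6 from 177204666 to 177212126. The ratio of *MGST2* to *LTC4S* was 1.05 in Rep1 and 1.27 in Rep2, but the *MGST2* values fitted as few as 1 read in Rep1 and 74 in Rep2, so the Rep1 ratio is poorly bounded.

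*LTA4H*, which opens the other arm, was nearly level between the libraries as deposited, at a log2 difference of 0.11 (Rep1 minus Rep2), but stood at 1.25 after scaling by the median of ratios and at 2.28 with Rep1 scaled to glial markers. It was at 23.5 TPM in Rep1 against 21.7 TPM in Rep2, a mean of 22.6 ± 1.30 TPM (SD, n = 2) at percentile 66.3, on at least 44 and 697 reads. The gene lies on the minus strand of chromosome 11 from 95800684 to 95836586. The ratio of *LTC4S* to *LTA4H* was 0.548 in Rep1 and 2.10 in Rep2, so the order of these genes was opposite in the libraries. *LTC4S*, *MGST2* and *MGST3* together exceeded *LTA4H* in both, with 48.0 TPM in Rep1 against 294 TPM in Rep2. On the mean log2(TPM + 1) scale *LTC4S* and *LTA4H* differed by 0.11, only 0.0670 SDs of a single library, so their order was not resolved.

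**Figure D1:**
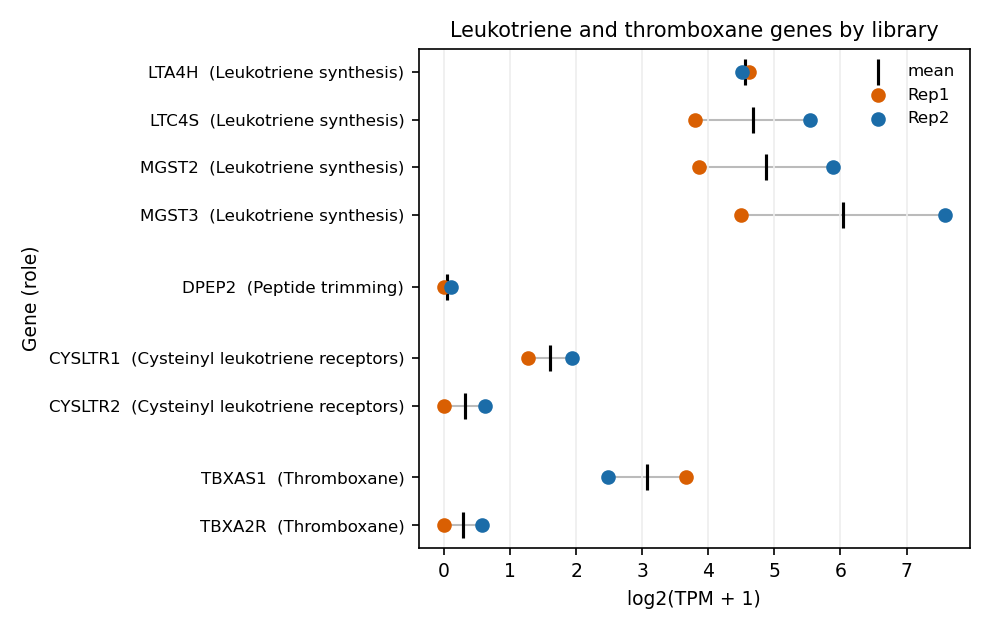
Level of the 9 leukotriene and thromboxane genes on the log2(TPM + 1) scale, with 1 point for each library and a bar at their mean. The synthesis genes lie to the right of the receptors and *DPEP2*, *LTA4H* has nearly coinciding points, and *TBXAS1* is the gene with Rep1 clearly to the right of Rep2.

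The gene that trims leukotriene D4 and both receptors of the cysteinyl leukotrienes were low. *DPEP2* encodes a membrane-bound dipeptidase that converts leukotriene D4 to E4. It was listed at 0 in Rep1, with 0.0731 TPM in Rep2, on the minus strand of chromosome 20 from 55200346 to 55207944. Its relative *DPEP3* was likewise at 0 in Rep1 and at 0.139 TPM in Rep2, and *DPEP1* was at 0 in both libraries. No dipeptidase of this family thus reached 1 TPM in either library.

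*CYSLTR1*, the receptor that binds leukotriene D4 most tightly and the target of montelukast, was the receptor above 0 in both libraries. It was at 1.41 TPM in Rep1 against 2.83 TPM in Rep2, a mean of 2.12 ± 1.004 TPM (SD, n = 2) at percentile 27.6, on at least 2 and 69 reads. The gene lies on the minus strand of chromosome X from 75005614 to 75092579. *CYSLTR2*, on the plus strand of chromosome 17 from 27084669 to 27132414, was listed at 0 in Rep1, with 0.541 TPM in Rep2. *TBXA2R*, the thromboxane receptor, on the minus strand of chromosome 19 from 3483679 to 3496257, was listed at 0 in Rep1, with 0.486 TPM in Rep2.

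These zeros do not show absence. Among the 200 genes nearest in Rep2 level, 79.0% were also at 0 in Rep1 for *CYSLTR2*, 77.5% for *TBXA2R* and 87.5% for *DPEP2*. The 3 receptors together came to 1.41 TPM in Rep1 against 3.86 TPM in Rep2. The 9 genes together came to 84.7 TPM in Rep1 against 324 TPM in Rep2, of which *LTC4S*, *MGST2* and *MGST3* took 56.7% and 90.7%.

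*TBXAS1*, a cytochrome P450 enzyme and the thromboxane A2 synthase, was higher in Rep1. It was at 11.7 TPM in Rep1 against 4.61 TPM in Rep2, a mean of 8.15 ± 5.02 TPM (SD, n = 2) at percentile 47.1, on at least 17 and 115 reads. The gene lies on the plus strand of chromosome 3 from 166247393 to 166442003. Its difference of 1.18 on the log2(TPM + 1) scale (Rep1 minus Rep2) stood at percentile 86.5 of the differences of all 14693 genes, whereas that of *MGST3*, at -3.08, stood at percentile 11.7. The synthase was above its receptor in both libraries, with a mean log2 difference of 2.79 to *TBXA2R*. This is 2.27 SDs of a single library, but the receptor was at 0 in Rep1 and its own SD, at 0.398, was small.

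In the ranking by mean, *MGST3* came first, followed by *MGST2*, *LTC4S*, *LTA4H*, *TBXAS1*, *CYSLTR1*, *CYSLTR2*, *TBXA2R* and *DPEP2*. Rep2 gave this same order. In Rep1 the sole change among the 6 genes above 0 was that *LTA4H* moved from place 4 to place 1. Of the 36 pairs of genes, 30 had the same order in both libraries, 3 had the opposite order, all of them with *LTA4H*, and 3 were tied at 0 in Rep1. A gene at 0 in Rep1 lies below any detected gene there, so the 15 pairs among the 6 genes above 0 in both libraries are the more telling, and 12 of these kept their order. In Rep1, however, *MGST2* exceeded *LTC4S* by only 0.059 and *TBXAS1* by only 0.19 on the log2(TPM + 1) scale. *LTC4S* exceeded *TBXAS1* there by 0.13. The *MGST2* values fitted as few as 1 read in Rep1, so its place in that library is poorly bounded.

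Since 2 values give a poor SD for a gene, the SD of a single library was pooled over its 200 closest genes by mean, from how far Rep1 and Rep2 differed in each. These differences were taken about 0, so a shift between the libraries that the closest genes share widens the SD. Such a shift cancels where both genes of a pair have it. The SD ran from 1.55 to 1.83 on the log2 scale for the 6 genes above 0 in both libraries, and was largest for *CYSLTR1*. For the genes at 0 in Rep1 it was only 0.433 (*CYSLTR2*), 0.398 (*TBXA2R*) and 0.0732 (*DPEP2*). The log2(TPM + 1) scale understates differences of low genes, so gaps to these 3 genes come out wider in SDs. By this measure none of the 8 neighbouring pairs in rank was separated by more than 1 SD, but when the differences of the closest genes were centred on their mean first, 4 were, namely *LTA4H* from *TBXAS1*, *TBXAS1* from *CYSLTR1*, *CYSLTR1* from *CYSLTR2* and *TBXA2R* from *DPEP2*, by 1.05 to 1.79 SDs. *MGST3* exceeded *MGST2* by 0.734 SDs, *MGST2* exceeded *LTC4S* by 0.120, *LTA4H* exceeded *TBXAS1* by 0.914 and *TBXAS1* exceeded *CYSLTR1* by 0.837. *CYSLTR1* exceeded *CYSLTR2* by 0.970, *CYSLTR2* exceeded *TBXA2R* by 0.0629 and *TBXA2R* exceeded *DPEP2* by 0.822. Genes farther apart in rank were separated in part. *MGST3* exceeded *LTA4H* by only 0.953 SDs, *MGST2* exceeded *LTA4H* by 0.195 and *CYSLTR1* exceeded *TBXA2R* by 0.994. Each of the 4 synthesis genes exceeded *CYSLTR1* by 1.73 to 2.62 SDs, and 22 of the 36 pairs differed by more than 1 SD. Of the 15 pairs among the genes above 0 in both libraries, 6 did so, and of the 18 pairs of such a gene with one at 0 in Rep1, 16 did.

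**Figure D2:**
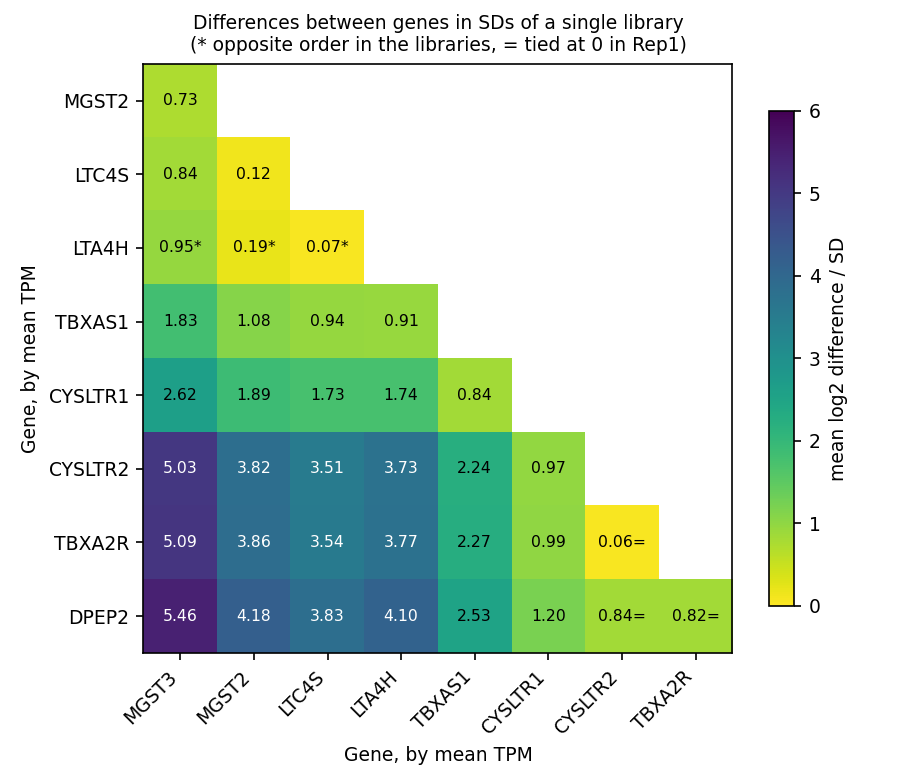
Difference between each pair of the 9 genes in mean log2(TPM + 1), divided by the SD of a single library, with genes ordered by mean TPM on both axes, asterisks for opposite order in the libraries and equals signs for ties at 0. Values beside the diagonal stay under 1, and those of *MGST3*, *MGST2*, *LTC4S* and *LTA4H* against *DPEP2*, in the bottom row, run from 3.83 to 5.46. The SD of *DPEP2* itself was only 0.0732.

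Each count over the 9 genes is read against that over all genes. Above 0 in both libraries were 6 of the 9, and 60.9% of all listed genes. Lower in Rep1 by any amount were 7 of the 9, and 75.9% of the detected genes. At least 2-fold higher in Rep2 on the log2(TPM + 1) scale were 3 of the 9, namely *MGST3*, *MGST2* and *LTC4S*, and 51.3% of the 14693 detected genes. At least 2-fold higher in Rep1 was 1, *TBXAS1*, against 14.8%. The median difference of the 9 genes was -0.62, beside -1.07 for all genes. The 3 genes at 0 in Rep1 were too low in Rep2 to reach a 2-fold difference on this scale. The directions of *MGST2* and *LTC4S* depended on the scaling: with Rep1 scaled to the oligodendrocyte and astrocyte markers of Rep2 their differences were 0.11 and 0.39, while *MGST3* stayed lower in Rep1 at -0.91. That scaling used the summed markers, of which *MBP* made up most in both libraries. *TBXAS1* was higher in Rep1 under all 3 scalings tried, from 1.06 to 3.30, whereas *LTA4H* ran from -0.053 with the 10 most abundant genes left out to 2.28 with the marker scaling. *CYSLTR1*, lower in Rep1 as deposited at -0.67, stood higher there after the median of ratios, at 0.12, and with the marker scaling, at 0.98. After scaling by the median of ratios, 33.8% of all genes were at least 2-fold higher in Rep2 and 23.7% in Rep1, with 1 and 2 of the 9 genes, the latter being *TBXAS1* and *LTA4H*.

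**Figure D3:**
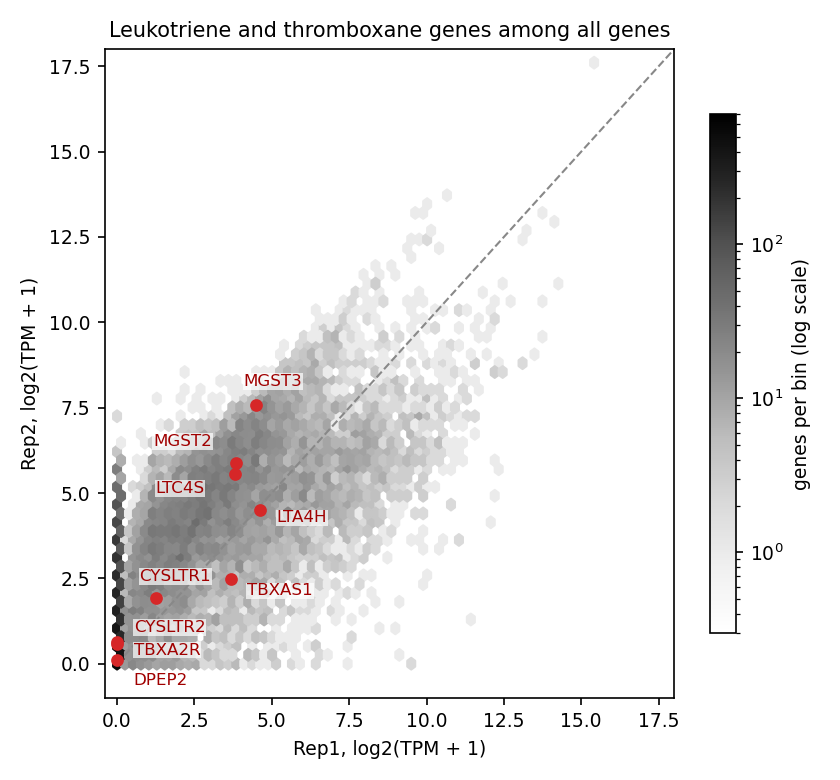
Rep1 against Rep2 on the log2(TPM + 1) scale for the 14693 detected genes, with grey bins shaded by number of genes on a log scale, the 9 genes in red and the line of equal levels dashed. *MGST3*, *MGST2* and *LTC4S* lie above the line within the main cloud, *LTA4H* lies near it, *TBXAS1* lies below it, and 3 genes lie at 0 on the Rep1 axis.

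The steps before the branch were represented as well. *ALOX5*, the 5-lipoxygenase, and its activating protein *ALOX5AP* were above 0 in both libraries. Their ratio (*ALOX5AP* to *ALOX5*) was 0.148 in Rep1 and 2.26 in Rep2, with *ALOX5AP* on at least 3 and 356 reads. The ratio of *LTC4S* to *ALOX5* likewise went from 0.464 in Rep1 to 3.63 in Rep2. *LTA4H* stayed nearer to *ALOX5*, at ratios of 0.847 and 1.73. *PLA2G4A*, the cytosolic phospholipase A2, was below 1 TPM in both libraries. *COTL1*, a 5-lipoxygenase binding protein, was at 4.02 TPM in Rep1 against 74.6 TPM in Rep2, on at least 1 and 319 reads. The cyclooxygenase genes that supply *TBXAS1* were both listed at 0 in Rep1, where *TBXAS1* was higher. In Rep2 *PTGS1* was at 3.98 TPM and *PTGS2* at 25.5 TPM. The share of the 200 genes nearest in Rep2 level that were also at 0 in Rep1 was 39.5% for *PTGS1* and 16% for *PTGS2*.

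Among 9 further enzymes and exporters of leukotrienes, 4 were above 0 in both libraries, as were 60.9% of all listed genes. *MGST1*, the remaining glutathione transferase of the family, was at 4.85 TPM in Rep1 against 68.6 TPM in Rep2, an 11.9-fold gap on the log2(TPM + 1) scale and in the direction of *MGST2* and *MGST3*. Like theirs, its values fitted as few as 1 read in Rep1, with 243 in Rep2, so the gap is poorly bounded. *GGT1*, which can trim leukotriene C4, was at 2.32 and 9.03 TPM, *GGT7* at 31.8 and 22.0 TPM, and *GGT6* at 0 in both. The reads of *GGT1* may be shared with related copies. *ABCC1*, the exporter of leukotriene C4, was at 0 in Rep1 and at 3.40 TPM in Rep2. *ABCC4*, an exporter of leukotrienes and prostaglandins, was at 2.19 and 9.96 TPM.

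The other 4 leukotriene receptors were all at 0 in Rep1, as *CYSLTR2* and 38.5% of all listed genes were. In Rep2 the low-affinity leukotriene B4 receptor *LTB4R2* was at 3.51 TPM, above the high-affinity receptor *LTB4R* at 0.356 TPM. *GPR17*, a relative of the cysteinyl leukotriene receptors found in oligodendrocyte precursors, was at 0.940 TPM, and *OXGR1*, a receptor described for leukotriene E4, was at 0. Of the 200 genes nearest in Rep2 level, the share at 0 in Rep1 was 41.5% for *LTB4R2*, 73.5% for *LTB4R*, 67.5% for *GPR17* and 96.0% for *OXGR1*. *LTB4R* and *LTB4R2* are neighbours on chromosome 7, at 86401806 to 86407292 and 86398469 to 86401261. No leukotriene receptor examined exceeded 3.51 TPM in either library.

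The 8 signalling partners of the thromboxane receptor were all above 0 in both libraries, as were 60.9% of all listed genes. They were also above the receptor in each library. The lowest was *ARHGEF11*, an exchange factor for RHOA, at 4.91 TPM in Rep1 against 10.8 TPM in Rep2. The G protein gene *GNAQ* was at 105 TPM in Rep1 against 51.1 TPM in Rep2, and *GNA12* at 82.4 and 32.0 TPM. *GNA13*, at 23.4 and 10.9 TPM, was also at least 2-fold higher in Rep1. The exchange factor gene *ARHGEF1* was at 43.8 TPM in Rep1 against 43.5 TPM in Rep2, and *RHOA*, the small GTPase these factors activate, at 2689 and 1352 TPM. As deposited, 6 of the 8 genes were higher in Rep1, as *TBXAS1* was, and 75.9% of the 14693 detected genes were lower there. That share includes genes at 0 in Rep1, which can only be lower there, so it is not a like background for these 8. These genes act downstream of many receptors.

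**Figure D4:**
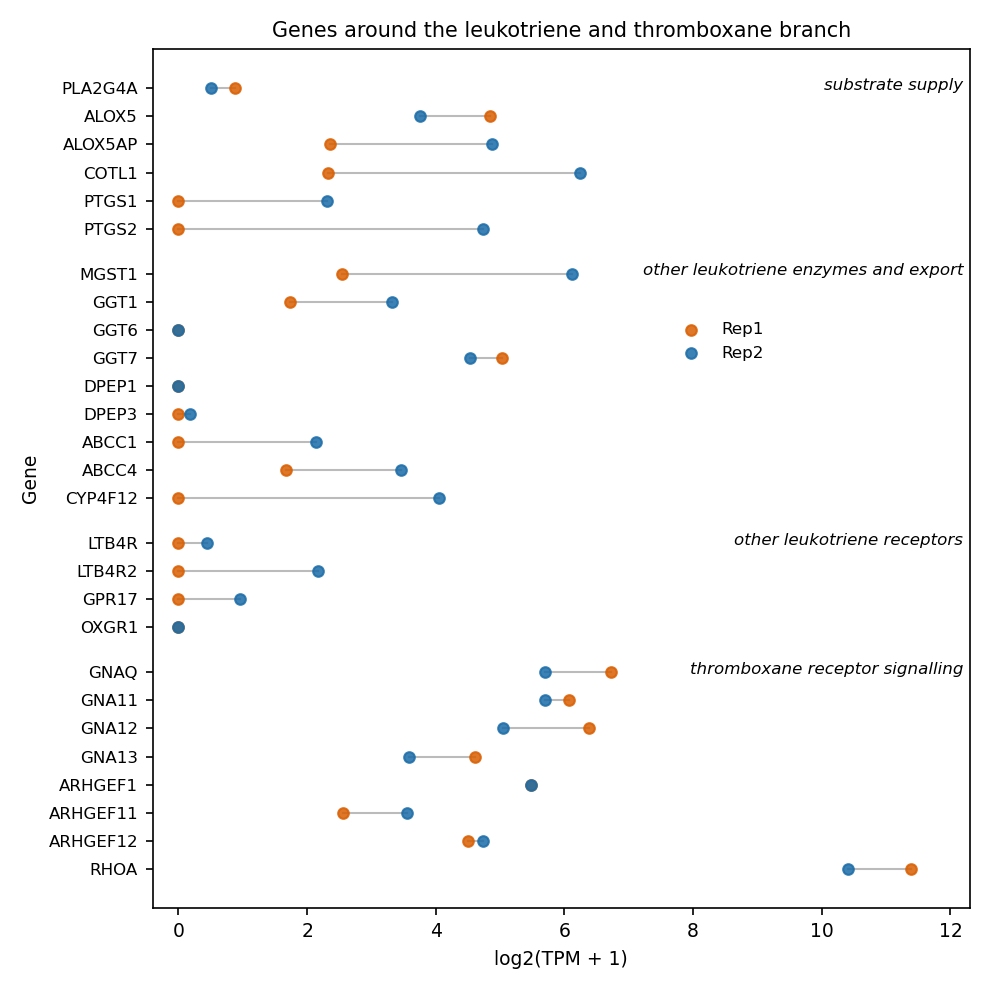
Levels on the log2(TPM + 1) scale of 27 genes around the branch, grouped by role, with 1 point for each library. The 4 other leukotriene receptors are at 0 in Rep1, and the 8 partners of the thromboxane receptor are above 0 in both libraries.

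Bulk RNA cannot tell fewer cells of a type from less RNA per cell, and these genes are known from several cell types that a nerve can hold. Of 12 microglia and macrophage markers, 9 were above 0 in Rep1 and all 12 in Rep2, with summed levels of 243 and 649 TPM. As deposited, 11 of the 12 were lower in Rep1, 10 of them at least 2-fold, with a median difference of -2.64. *CSF1R* was at 61.3 TPM in Rep1 against 62.2 TPM in Rep2 and *AIF1* at 113 and 64.5 TPM, whereas *TMEM119*, *CD163* and *MRC1* were at 0 in Rep1. The complement gene *C1QB* was at 30.3 and 173 TPM. Endothelial markers summed to 58.4 and 126 TPM, with 6 of 7 above 0 in Rep1, and *VWF* at 0 there. Markers of pericytes and smooth muscle, cells on which thromboxane acts, summed to 226 and 1246 TPM, and all 6 were at least 2-fold higher in Rep2. Of all detected genes, 75.9% were lower in Rep1 and 51.3% were at least 2-fold higher in Rep2.

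Markers of blood cells known for these genes were mostly low. The 5 eosinophil and basophil markers with a value summed to 0 TPM in Rep1 against 0.148 TPM in Rep2. The 6 platelet markers summed to 1.38 and 2.86 TPM, with *GP9* and *GP1BA* at 0 in both libraries. Of the 6 mast cell markers, *MS4A2*, *HDC* and *CMA1* were at 0 in both, and *CPA3* was at 4.22 TPM in Rep1 against 0.0982 TPM in Rep2. Of the 7 monocyte and neutrophil markers, *CD14* and *LYZ* were above 0 in both libraries, and the list summed to 39.4 and 182 TPM.

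The tissue label was matched by its glia. All 8 oligodendrocyte markers and all 6 astrocyte markers were above 0 in both libraries and lower in Rep1, with medians of -2.43 and -2.17 on the log2 scale. Fibroblast markers were lower too, with a median of -3.40. Over all detected genes the median was -1.07, and 75.9% were lower in Rep1. Photoreceptor markers, by contrast, summed to 3171 TPM in Rep1 against 5.67 TPM in Rep2, most of it from *GNAT1*, at 2763 and 1.56 TPM. Of these 8 markers, 7 were higher in Rep1, 6 of them at least 2-fold, beside 14.8% of all detected genes, and *SAG* was at 1.74 and 1.82 TPM. The differences of *LTC4S*, *MGST2* and *MGST3* lay between -3.08 and -1.74. That range holds both glial medians, and also those of the microglia and macrophage markers (-2.64) and of the pericyte and smooth muscle markers (-2.49). The medians of the other lists lay outside it. Such differences were common, since those of *LTC4S*, *MGST2* and *MGST3* stood at percentiles 35.8, 30.1 and 11.7 among all detected genes. Of the 200 genes nearest to each in Rep2 level, 65%, 63.5% and 70% were at least 2-fold lower in Rep1. The differences of *LTA4H* and *TBXAS1* lay above 0. The part of cell composition in these differences was not tested.

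**Figure D5:**
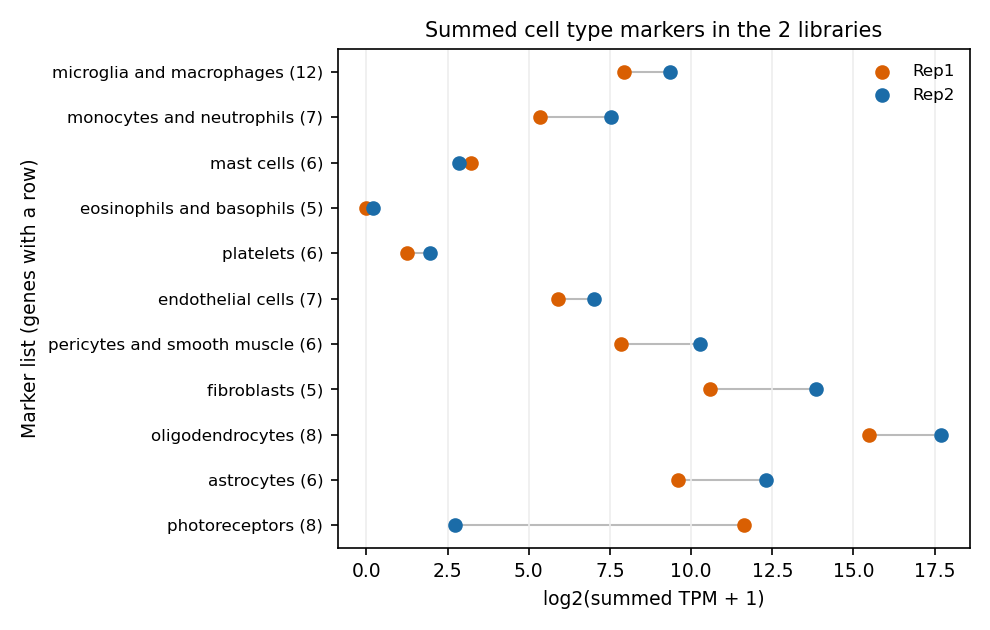
Summed level of each marker list on the log2(summed TPM + 1) scale, with 1 point for each library and the number of genes with a value in brackets. Eosinophil and basophil markers and platelet markers are lowest in both libraries, and the photoreceptor list is the one far higher in Rep1.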

How the data were processed

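The authors used Trim Galore 0.6.6 for trimming, STAR 2.7.1a for alignment to Mmul_10 and featureCounts 1.5.3 for counting, and deposited TPM values of 16684 genes in 2 libraries, made with a low-input amplification kit. Gene lengths and the handling of reads with several alignments are not given in the sources used here. Columns Rep1 and Rep2 could not be tied to single sample titles and were used as replicates of the condition. Differences were taken as log2(TPM + 1), which understates those of low genes. Percentiles are among genes above 0 in at least 1 library. To get the SD of a single library, the Rep1 minus Rep2 differences of the 200 closest genes by mean were pooled about 0. Smallest read numbers came from ratios of values with a tolerance of 1e-12, and 99.9% of 10168 genes gave whole numbers. No test was possible with 1 condition, no p-value was computed across genes, and a TPM table gives no interval per gene. Positions, transcripts and reading frames are from the RefSeq annotation of Mmul_10 (release 103), which held all 16684 symbols. Identity is over aligned residues without gaps (BLOSUM62). Python 3.11, pandas 2.3.3, numpy 2.4.6, Biopython 1.88 and matplotlib 3.10.9 were used, and the read and SD methods were tested on simulated data. Genes and lists were chosen with earlier results of these data known. Named were all 9 genes, pathway genes by role, and markers by list. Alternatives were other scalings, pseudocounts, thresholds and gene sets, the geometric mean, and each library alone.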

Additional observations from a re-analysis of the deposited data

How the results depend on the processing

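No paired analysis was possible because a single condition was sampled. The number of the 9 genes at least 2-fold higher in Rep2 was 3 as deposited, 1 after scaling by the median of ratios, 0 with Rep1 scaled to the oligodendrocyte and astrocyte markers of Rep2, and 5 with a pseudocount of 0.1. The number at least 2-fold higher in Rep1 was 1 as deposited, 2 under either of those scalings and 0 at a 4-fold threshold. With the marker scaling, which multiplies Rep1 by 4.65, the log2 difference (Rep1 minus Rep2) changed sign to 0.39 for *LTC4S*, 0.11 for *MGST2* and 0.98 for *CYSLTR1*, the last also after the median of ratios (0.12). Across all genes the share at least 2-fold higher in Rep2 went from 51.3% to 33.8% after the median of ratios and 24.8% after the marker scaling, and that higher in Rep1 from 14.8% to 23.7% and 34.5%. The number above 0 in both libraries (6), of pairs in the same order (30, or 22 when at least 2-fold apart in both) and of pairs over 1 SD apart (22 to 30) stayed within 1.5 times. Of neighbouring pairs in rank, 0 of 8 were over 1 SD apart as reported and 0 to 4 under the alternatives, with *CYSLTR1* and *CYSLTR2* apart in all of them except without the 10 most abundant genes. The mean moved beyond its SD under the marker scaling for *LTA4H* (22.6 to 65.5 TPM), *TBXAS1* (8.15 to 29.5), *LTC4S* (29.3 to 52.8) and *CYSLTR1* (2.12 to 4.69), and for *LTA4H* under the other scalings too (25.0 and 28.3). Values of a single library cannot judge the mean of 2. Whether the zeros of *CYSLTR2*, *TBXA2R* and *DPEP2* in Rep1 come from its depth was not tested.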
